A study of Mus musculus with 2 samples.

Results

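The 10 genes described here encode the MHC class II chains H2-Aa, H2-Ab1 and H2-Eb1, the class II helpers H2-DMa, H2-DMb1, Cd74, Ciita and Cd83, and the class I presentation proteins B2m and Tap1. They were chosen by name, with earlier results of these data known. Every probe set annotated with a member's symbol, alone or beside other symbols, was taken. That gave 19 probe sets for 10 of the 13319 genes named on the array. RNA came from implantation sites dissected from the uterus on day 8 of pregnancy, in females aged 4 months from a C57Bl/6J X OLA129 genetic background. One group was labelled control and the other Cbs null, that is, females homozygous for loss of cystathionine beta-synthase, and each had 1 Affymetrix array. The labels name the genotype of the uterus. Nothing in the sources used here gives the genotype of the conceptus inside it, the way the null allele was made or whether animals were pooled.

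MHC class II molecules are pairs of an alpha and a beta chain that carry peptides from endosomes to the surface of antigen presenting cells, where CD4 T cells read them. The invariant chain, Cd74, fills the groove of a new class II molecule, and the H2-DM heterodimer later exchanges its last fragment for an antigenic peptide. Ciita is the transactivator on which transcription of these genes depends. MHC class I molecules, by contrast, are found on nearly all nucleated cells and carry peptides that the Tap1 and Tap2 transporter moves into the endoplasmic reticulum. Trophoblast, the outer tissue of the conceptus, is known for its lack of class II molecules.

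The class II chains H2-Aa and H2-Ab1 and the invariant chain Cd74 were 1.44 to 1.97-fold higher on the Cbs null array, each by its brightest probe set. H2-DMa was 1.32-fold higher, while H2-Eb1, B2m and Tap1 differed by 1.17-fold or less. The brightest probe sets of H2-Aa and H2-Ab1 have names that mark several possible transcripts. The H2-Ab1 probe set without that mark gave 1.67-fold, and H2-Aa has none without it. Neither genotype had a replicate array, so no difference could be tested, and each describes these 2 arrays. The number of arrays limits the precision. Signals are linear intensities, and log2 ratios are Cbs null over control. Signals under a floor of 14.3 have no order, and a probe set passed the signal filter if the mean of both arrays was at least 70.5, the median over probe sets. In whole tissue, a change in the number of cells of a type and a change in RNA per cell cannot be told apart.

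Of the 19 probe sets, 11 passed the filter, and they represent 7 of the 10 genes. Each of the 11 read at least 70.5 on both arrays, so none passed through 1 array alone. Since the members were chosen with earlier results of these data known, the counts that follow describe them and test nothing. All 11 had a log2 ratio above 0, against 52.9% of the 11315 probe sets that passed. Of the 11, 5 were at least 1.5-fold higher, against 2.6% of all that passed, and none was 2-fold higher, against 0.636%. None was 1.5-fold lower, against 1.65%. These 5 were the 3 probe sets of H2-Ab1, the dimmer one of H2-Aa, and Cd74. By gene, with each gene read from its brightest probe set, 2 of 7 were at least 1.5-fold higher, against 2.37% of 7669 genes, and none was 1.5-fold lower, against 1.26%. The median log2 ratio of the 7 genes was 0.40, and that of all genes that passed was 0.02, with 95% of them between -0.47 and 0.58.

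**Figure D1:**
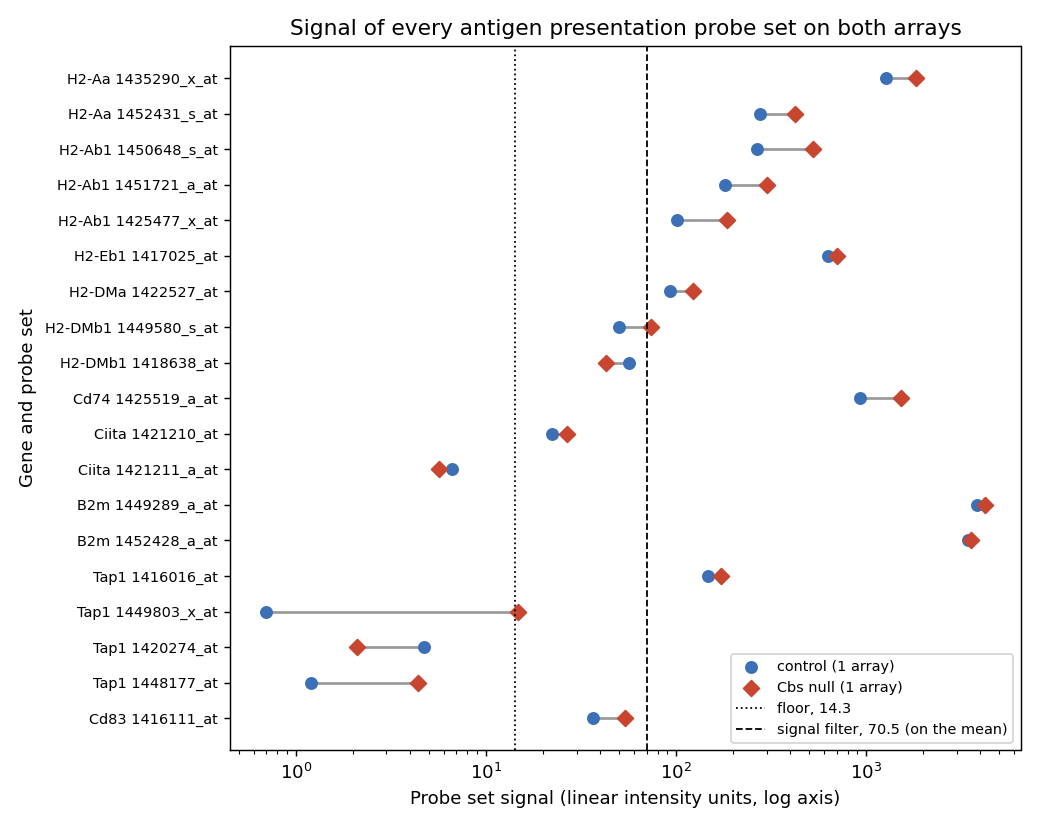
Signal of each of the 19 probe sets (linear intensity on a log axis) on the control array (circles) and the Cbs null array (diamonds), with the floor of 14.3 dotted and the filter of 70.5 dashed. The gap between the arrays is wide for H2-Aa, H2-Ab1 and Cd74 and narrow for B2m, H2-Eb1 and the bright probe set of Tap1; Ciita and 3 probe sets of Tap1 lie at the dim end.

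H2-Ab1, the beta chain of the I-A molecule, showed the highest ratios. Its brightest probe set read 266.3 in control and 523.4 in Cbs null, a log2 ratio of 0.97 or 1.97-fold. A second probe set read 180.7 in control and 300.9 in Cbs null, a log2 ratio of 0.74. The dimmest read 101.7 in control and 185.8 in Cbs null, a log2 ratio of 0.87. All 3 were thus higher on the Cbs null array and differed among themselves by at most 0.24. For scale, the ratios of the 2 brightest probe sets of a gene differed with an SD of 0.30 over 2284 genes.

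H2-Aa, the alpha chain that pairs with H2-Ab1, was higher by a smaller ratio. Its bright probe set read 1275.8 in control and 1833.5 in Cbs null, a log2 ratio of 0.52. The other read 277.8 in control and 423.3 in Cbs null, a log2 ratio of 0.61. Both ratios, and those of the 3 H2-Ab1 probe sets, lay above the range that held 95% of probe sets of like signal. That range was -0.46 to 0.47 for the brightest tertile, -0.47 to 0.57 for the middle tertile and -0.58 to 0.67 for the dimmest. With Cd74, 6 of the 11 probe sets lay above it, against 2.52% of all probe sets.

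H2-Eb1, the beta chain of the I-E molecule, did not follow H2-Ab1. It read 634.4 in control and 703.0 in Cbs null, a log2 ratio of 0.15, inside the range of bright probe sets. The ratio of the brightest H2-Ab1 probe set exceeded that of H2-Eb1 by 0.83 on the log2 scale. The gap is smaller from the H2-Ab1 probe set with 0.74. For scale, 33 of the 2284 genes, 1.44%, had their own probe sets 0.83 or more apart. That spread is between probe sets of the same gene, so it does not test a difference between genes. The gap between H2-Aa and H2-Eb1 was 0.38, a distance that 15.8% of those genes reached between their own probe sets.

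H2-Ea encodes the alpha chain that pairs with H2-Eb1, and C57BL/6 mice are known not to express it because its promoter is deleted. Its 3 probe sets were under the floor on both arrays, with 4.3, 0.6 and 1.4 in control and 8.2, 10.2 and 3.5 in Cbs null. They give no ratio.

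**Figure D2:**
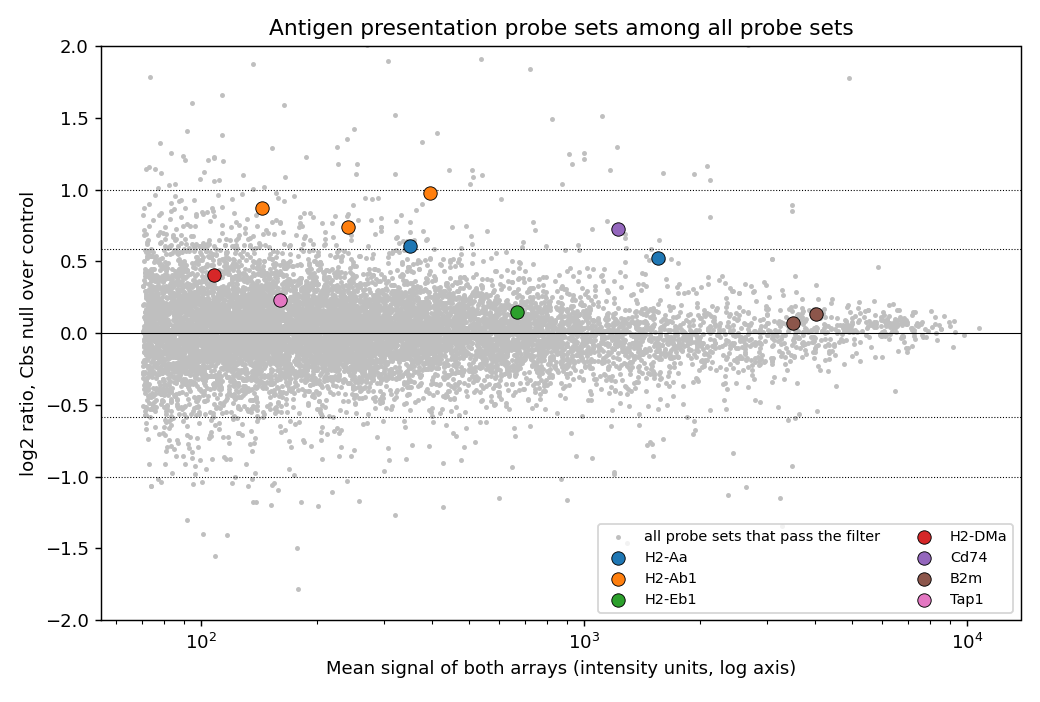
The Cbs null to control log2 ratio against the mean signal of both arrays (log axis) for the 11 probe sets that passed the filter (coloured by gene) and for all 11315 that passed (grey), with dotted lines at 1.5-fold and 2-fold; 9 grey probe sets lie beyond the axis. H2-Ab1, H2-Aa and Cd74 lie along the upper edge of the grey cloud, and H2-Eb1, Tap1 and B2m lie inside it.

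Class II promoters are known for an upstream module, in which an X box bound by RFX and a Y box bound by NF-Y recruit Ciita. The following stretches are shown because they hold a match to such a pair, in H2-Aa only to a shortened form that was searched after the promoters had been read. They are RefSeq sequences of build GRCm38.p6, written 5′ to 3′ along the gene, with matches in capitals: AGNAAC, a core of RFX sites, or its shortened form GNAAC in H2-Aa, and ATTGG, the core of NF-Y sites.
H2-Aa, chr17:34287852-34287919, minus strand: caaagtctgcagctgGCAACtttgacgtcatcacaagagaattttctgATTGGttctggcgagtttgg
H2-Eb1, chr17:34305760-34305827, plus strand: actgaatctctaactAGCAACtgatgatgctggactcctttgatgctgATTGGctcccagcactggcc
H2-DMb1, chr17:34153081-34153149, plus strand: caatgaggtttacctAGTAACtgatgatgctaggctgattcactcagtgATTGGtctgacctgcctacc

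In H2-Eb1 the start of AGCAAC lay 33 bases before the start of ATTGG, and in H2-DMb1 the distance from AGTAAC was 34 bases. In H2-Aa the start of GCAAC lay 33 bases before ATTGG. Both strands of 32851 promoters of 300 bases, 250 of them before the gene start, were searched. AGNAAC was followed by ATTGG on the same strand, 28 to 40 bases on, in 0.651% of them. The shortened form GNAAC with ATTGG, searched 27 to 39 bases apart after the member promoters had been read, was found in 2.12%, and it includes the longer form. AGNAAC alone was in 48.1% of promoters and ATTGG alone in 37.4%. Neither form of the pair was in the 2 promoters of H2-DMa or in that of Tap1, and H2-Aa holds no AGNAAC. Among genes that passed the filter, 52 had the AGNAAC and ATTGG pair, with a median log2 ratio of 0.05, and 2 of them, 3.85%, were at least 1.5-fold higher. That is near the 2.28% of 5758 such genes with any promoter in the table, whose median was 0.02. Promoters were found for 6 of the 10 members, and none is shown for H2-Ab1, Cd74, Ciita and Cd83. A match is a description of the letters and does not show binding.

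Cd74, the invariant chain, read 926.3 in control and 1527.7 in Cbs null, a log2 ratio of 0.72 or 1.65-fold. It has a single probe set on the array. Its ratio lay between those of H2-Aa and H2-Ab1 and above the range of bright probe sets.

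The peptide editor H2-DM was dim. H2-DMa, its alpha chain, read 93.1 in control and 123.0 in Cbs null, a log2 ratio of 0.40, which lay inside the range of dim probe sets. H2-DMb1, its beta chain, was represented by 2 probe sets that are also annotated to H2-DMb2 and that fell below the filter. The first read 50.3 in control and 73.6 in Cbs null, a log2 ratio of 0.55. The other read 56.7 in control and 43.0 in Cbs null, a log2 ratio of -0.40. These probe sets disagreed in sign, so the arrays give no direction for H2-DMb1.

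Cd83, a surface protein that keeps class II molecules on dendritic cells by slowing their removal, was below the filter. It read 36.8 in control and 54.1 in Cbs null, a log2 ratio of 0.56 from dim signals. Ciita, the class II transactivator, was dimmer still. Its better probe set read 22.2 in control and 26.7 in Cbs null, a log2 ratio of 0.27 that became 0.00 when the floor was raised to the 40th percentile. Its other probe set was under the floor on both arrays, at 6.6 and 5.7. Counting also those below the filter, 15 probe sets had both values above the floor, and 14 of these were higher on the Cbs null array. The exception was the H2-DMb1 probe set with -0.40. No share over all probe sets above the floor was computed to set beside this count, and several of the 15 belong to the same gene. The count is therefore not read as a result about the members.

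The class I members differed little between the arrays. B2m, the light chain of every class I molecule, read 3829.4 in control and 4206.2 in Cbs null, a log2 ratio of 0.14. Its second probe set read 3422.9 in control and 3586.3 in Cbs null, a log2 ratio of 0.07. The ratio of Cd74 exceeded that of B2m by 0.59, a distance that 4.95% of genes with 2 probe sets reached between their own. Tap1, a subunit of the peptide transporter, read 147.5 in control and 173.3 in Cbs null, a log2 ratio of 0.23. Its 3 other probe sets gave no measurement, since 2 were under the floor on both arrays and the third read 0.7 in control and 14.8 in Cbs null, just above the floor.

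The B2m promoter is shown because it holds GAAACTGAAA, a match to the core of the interferon stimulated response element, printed in capitals with ATTGG. That core was searched as GAAA, any 2 bases and GAAA again.
B2m, chr2:122147542-122147644, plus strand: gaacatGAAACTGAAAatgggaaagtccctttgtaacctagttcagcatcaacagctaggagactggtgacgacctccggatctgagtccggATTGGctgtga
The interferon core was found in 3.44% of promoters on either strand. Among the members with a promoter it was in B2m only, and TTCNNNGAA, the gamma activated sequence found in 8.3% of promoters, was in none of them. Neither form of the X and Y pair matched in the B2m window, as in those of H2-DMa and Tap1.

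Other genes of the class II pathway were mostly higher by small ratios. Of the 18 genes listed for class II chains and peptide loading, 15 were on the array and 9 passed the filter, 5 of them members. The list had a median log2 ratio of 0.43, with 8 genes above 0, against 55.2% of all genes. The 4 genes that are not members had a median of 0.31, and none was 1.5-fold apart in either direction. Ctsl, a lysosomal protease, read 3314.9 in control and 3778.0 in Cbs null, a log2 ratio of 0.19. Ifi30, the lysosomal thiol reductase that unfolds antigens, went the other way, from 985.8 to 808.9, a log2 ratio of -0.29. The 2 remaining genes, given after their values were seen, were Ctss, the protease that degrades the invariant chain, at 0.51 and Lgmn, legumain, at 0.43. H2-Oa, the alpha chain of the H2-DM inhibitor H2-DO, was listed at 9.1 in control and 46.8 in Cbs null, with the control value under the floor, and H2-Ob was under the floor on both arrays.

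Factors of class II transcription had ratios near 0. Of 9 genes on the array 6 passed, with a median log2 ratio of -0.03, 3 above 0 and 3 below. Atf1, which binds cyclic AMP response elements, had 0.01, and Nfyc, a subunit of NF-Y, had -0.08. Ciita is the 1 member in that list, and it was below the filter.

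The class I list had a median log2 ratio of 0.08 over 22 genes that passed, and none was 1.5-fold apart. Of the 22, 14 were above 0 and 8 below, against 55.2% of all genes above 0. Single genes ranged from -0.34 in Pdia3 to 0.51 in H2-Q7. H2-T23 had 0.49, so these H2-Q7 and H2-T23 ratios came close to the 0.52 of H2-Aa. These 3 genes of the class I list are given after their values were seen. H2-K1, a classical class I heavy chain, had 0.29 in its brightest probe set, from 2205.4 to 2698.9. Its 4 probe sets that passed ranged from 0.02 to 0.65. Class I heavy chain genes are near-identical, and how much each adds to a signal is uncertain. Calr, the chaperone calreticulin, had -0.03.

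Interferon gamma is a known inducer of both classes. Of 12 genes of its signalling list that passed, 11 had a ratio above 0, against 55.2% of all genes. None was 1.5-fold apart, and the median log2 ratio was 0.14. Jak1, a kinase of the receptor, had 0.04, and Iigp1, an induced GTPase, had 0.13. Ifng itself was under the floor on both arrays. Of the 8 costimulation genes, 2 passed, the adhesion molecule Icam1 at 0.13 and Cd48 at -0.43.

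Markers of cells that carry class II were read beside these ratios. Ptprc, which all leukocytes carry, read 545.8 in control and 521.8 in Cbs null, a log2 ratio of -0.06. Of 22 macrophage markers 16 passed, with a median log2 ratio of 0.29. Of those 16, 15 were above 0, against 55.2% of all genes. Their summed signal over all 22 was 8736.3 in control and 11018.3 in Cbs null. Cd68, a lysosomal protein of macrophages, had the highest ratio, 0.83, from 138.0 to 246.1. Adgre1 was the 1 that passed and was not above 0, at 177.0 in control and 176.4 in Cbs null. Much of the sum came from Lyz1, at 2314.1 in control and 2937.5 in Cbs null, and Lyz2, at 1182.3 and 1715.3. The 2 Lyz1 probe sets that passed disagreed in sign, with log2 ratios of 0.34 and -0.31. The 3 of C1qb ranged from -0.04 to 0.38. Most macrophage markers that passed thus moved in the same direction as H2-Aa, H2-Ab1 and Cd74. Their part in the class II ratios was not tested.

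Dendritic cell and lymphocyte markers were mostly too dim to read. Of 14 dendritic cell markers on the array 2 passed, Fscn1, the actin bundler fascin, at -0.03 and the lectin Clec10a at -0.51. The 14 summed to 1855.1 in control and 1835.4 in Cbs null, most of it from Fscn1, at 1536.4 and 1501.8. Xcr1, Ccr7, Cd207 and Ccl22 were under the floor on both arrays. Of 12 B cell markers 4 passed, all above 0, against 55.2% of all genes. The defining markers Cd79a, Ms4a1 and Pax5 were under the floor. The 12 summed to 5171.0 in control and 5487.4 in Cbs null, most of it from the immunoglobulin gene Igkc, at 3970.0 and 4089.4. Ighm, the heavy chain of immunoglobulin M, had 0.94, but its probe sets that passed ranged down to -0.31. No T cell marker passed, and 6 of 9, Cd3d, Cd3e, Cd4, Cd8a, Cd8b1 and Cd5, were under the floor. The 9 summed to 110.9 in control and 97.0 in Cbs null.

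**Figure D3:**
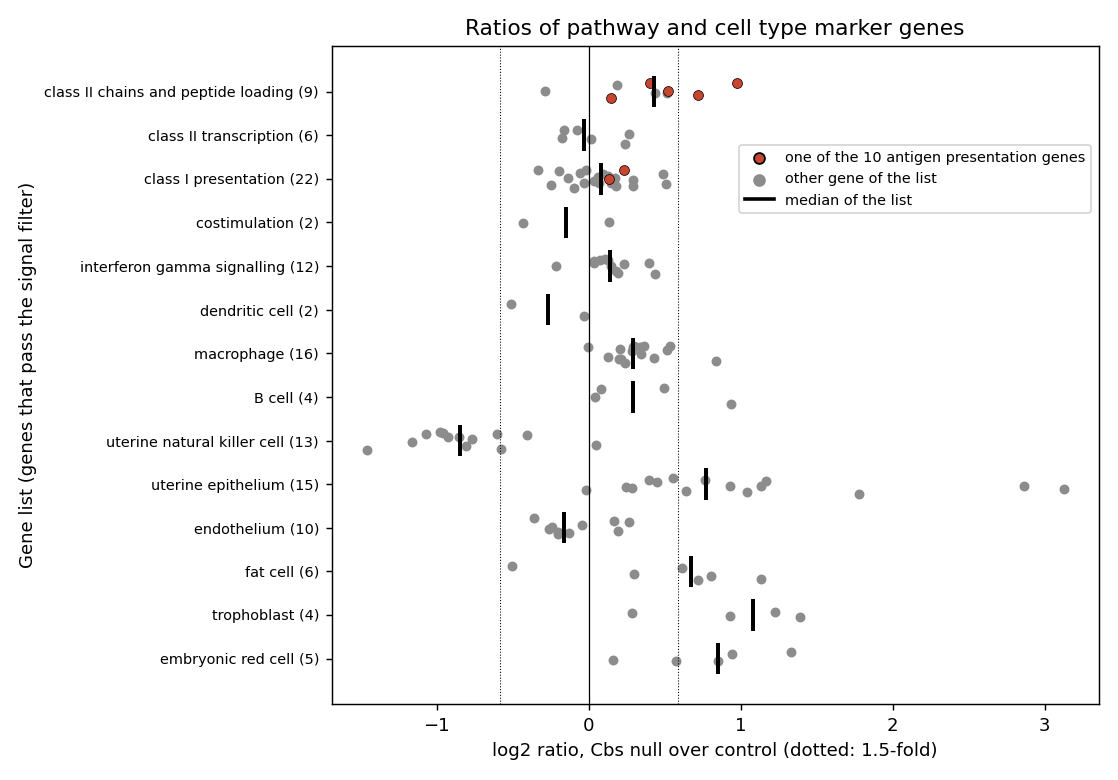
The Cbs null to control log2 ratio for each gene that passed the filter, by list, with the number of genes in brackets, the median as a bar, and antigen presentation members in red. The class II list has its median at 0.43 and the class I list at 0.08; macrophage markers centre on 0.29, uterine natural killer cell markers on -0.85 and uterine epithelium on 0.77.

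Marker lists of other tissues also differed between the arrays. Of 15 uterine epithelial markers that passed, 14 were above 0, against 55.2% of all genes, and 9 at least 1.5-fold higher, against 2.37%. The 18 on the array summed to 8783.9 in control and 27867.2 in Cbs null. Among those that passed, the highest log2 ratios were those of the secreted proteins Spink1 at 3.13, Prss28 at 2.86, Prss29 at 1.78 and Clu at 1.17. Within the epithelial sum, Prss28 went from 918.9 to 6692.4, Prss29 from 2220.1 to 7620.0 and Spink1 from 556.3 to 4853.2. Other markers, given after their values were seen, had smaller ratios. The keratins Krt18, Krt8, Krt7 and Krt19 had 0.64, 0.55, 0.29 and 0.25. Epcam had 0.39, and Cdh1, which was not above 0, had -0.02. Uterine natural killer cell markers were below 0 in 12 of the 13 that passed and above 0 in 1, against 55.2% of all genes above 0. All those on the array, with a shared probe set counted once, summed to 16084.3 in control and 8103.5 in Cbs null. The 8 fat cell markers summed to 5802.5 in control and 8446.8 in Cbs null, the 8 trophoblast markers to 605.6 and 1146.6, and the 7 embryonic red cell markers to 9192.6 and 12482.7. The 10 endothelial markers summed to 3722.3 and 3328.9. The part of these tissues in the class II ratios was not tested.

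Most members are neighbours. H2-DMa, H2-DMb1, Tap1, H2-Ab1, H2-Aa and H2-Eb1 lie within a run of 11 protein-coding genes on chromosome 17 in the RefSeq gene order. Cbs lies on the same chromosome, with 71 protein-coding genes between it and H2-DMa. B2m is on chromosome 2, Cd83 on chromosome 13, Ciita on chromosome 16 and Cd74 on chromosome 18. The labels do not give the H2 haplotype of either group. Whether the groups differ in it is not known. If they do, on this mixed background, Cbs genotype and H2 haplotype cannot be told apart in these arrays for genes of this run.

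Within the run, neighbours differed from each other. Psmb9 and Psmb8, subunits of the immunoproteasome that flank Tap1, had log2 ratios of 0.13 and 0.18, and Tap2 had -0.02. The 5 members of the run that passed had a median of 0.40 and ranged from 0.15 in H2-Eb1 to 0.97 in H2-Ab1. Of the 34 genes between Cbs and H2-DMa that passed, 5.88% were at least 1.5-fold apart in either direction, against 3.79% of genes on all chromosomes, with a median of 0.06. Of the 42 that passed among the 100 genes after H2-Eb1, 1 was 1.5-fold higher or more and 1 lower, or 4.76%. Cd74, which lies outside chromosome 17, was 1.65-fold higher. The part of linkage to Cbs in the ratios of the run was not tested.

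**Figure D4:**
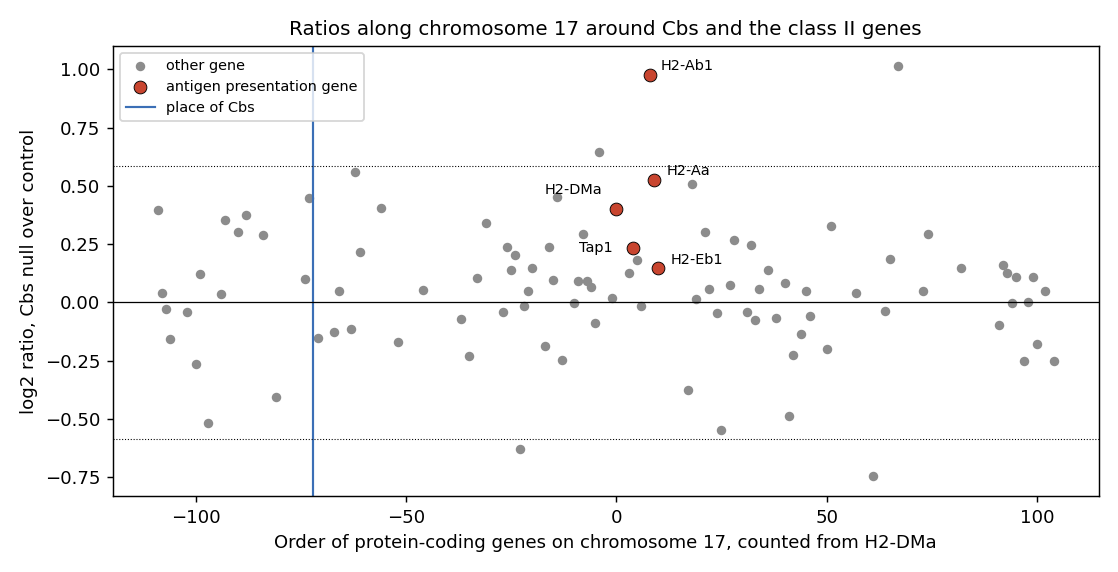
The Cbs null to control log2 ratio for genes that passed the filter, by their order on chromosome 17 counted from H2-DMa, with antigen presentation members in red, a vertical line at the place of Cbs and dotted lines at 1.5-fold. Within the run of 11 genes from H2-DMa to H2-Eb1, H2-Ab1 has the highest ratio of those that passed, 0.97, while a gene further along reaches 1.01.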

How the data were processed

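Per the labels, biotinylated cRNA from 2 microg total RNA of implantation sites was hybridised to 1 array per genotype. Each deposited value is a linear intensity that the authors obtained with GCOS 1.4, according to the submitters' processing notes. The sources used here give no algorithm, genome build or detection calls. The 2% trimmed mean was 200.08 on both arrays, so no further scaling was applied. Of 22690 probe sets, 64 controls were left out. The platform annotation gave 1 symbol for 20380 probe sets, several for 691 and none for 1555. A probe set with several symbols counted for each of them.

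The floor was the 25th percentile of all signals and the filter the median of mean signal. Each gene was read from its brightest probe set that passed. Lists held 219 genes in 15 lists, of which 200 matched the array. From each list the rule named up to 4 genes that differed by 1.5-fold or more, or failing that the 2 of highest signal, and H2-Ea and Ptprc were always given. Alternatives covered scaling, floor, pseudocount, filter and choice of probe set. Members and lists were chosen with earlier results of these data known. The ratio script was tested on simulated data. Gene order came from RefSeq assembly GRCm38.p6, used only for names and order, and promoter coordinates belong to that build. Software was Python 3.11.15, numpy 2.4.6, pandas 2.3.3 and statsmodels 0.14.6.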

Additional observations from a re-analysis of the deposited data

How the results depend on the processing

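The median log2 ratio over member genes ranged from 0.32 to 0.52 under the 12 alternatives, against 0.40 as reported, and under each of them 2 genes were at least 1.5-fold higher. The class II list ranged from 0.42 to 0.52 and the class I list from 0.06 to 0.12. Quantile normalization, centring, loess and the floors and pseudocount left 13 or 14 of 15 member probe sets above 0. Here too no share over all probe sets stands beside the count. The brightest H2-Ab1 probe set ranged from 0.93 to 0.97, Cd74 from 0.71 to 0.75 and the bright H2-Aa probe set from 0.51 to 0.55. Among 90 recomputed ratios of single probe sets, 1 moved by more than the spread between probe sets of a gene (SD per ratio 0.21), that of Ciita, which became 0.00 once the floor stood at the 40th percentile, where both its values lie under the floor. With no filter or a filter at the 25th percentile all 10 members counted, and the median was 0.46. Dropping the probe sets whose names mark several possible transcripts removed H2-Aa and left 6 members, and a filter at the 75th percentile left 5. No paired analysis was possible because each group had 1 array. Signal over background limits Ciita, Cd83, H2-DMb1 and all but 1 probe set of Tap1.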
